A study of Homo sapiens with 6 samples.

Results

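The BCL2 family is the set of proteins that decide whether the outer membrane of the mitochondrion stays closed or is opened during apoptosis. Pro-survival members such as BCL2, BCL-XL and MCL1 hold the membrane closed by binding the pore-forming effectors BAX and BAK and the BH3-only proteins, which carry a single conserved helix and act as sensors of stress. When the BH3-only proteins outweigh the pro-survival members, BAX and BAK assemble into pores, cytochrome c leaves the mitochondrion and caspases are activated. In leukemia cells that depend on BCR-ABL, signals from the kinase are known to keep the pro-survival side high and the BH3-only protein BIM low. The 10 genes described here were picked by name, with earlier results of these data known and with no rule on their values. They are the pro-survival genes Bcl2, Bcl2l1 (BCL-XL) and Mcl1, the effectors Bax and Bak1, and the BH3-only genes Bcl2l11 (BIM), Bid, Bad, Bmf and Bik. All 10 were found among the 22413 genes listed.

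The samples were BaF3-T315I cells, 3 of them controls and the other 3 exposed for 48 h to 1.1 µM of I13, a histone deacetylase inhibitor derived from indole-3-butyric acid. BaF3 is a murine pro-B line that normally needs interleukin 3, and both groups carried T315I-mutated BCR-ABL by stable transfection. Whether the cells were 1 clone or a pool, and the vehicle and time of the control samples, are not given in the sources used here. The values are FPKM, the fragments on a gene per kilobase of its length and of the mapped fragments of its library, so that levels of different genes can be set side by side. A general statement in the study's methods speaks of independent experiments, but nothing ties it to the sequenced samples or says that these came from separate cultures, and p-values then measure only the spread between these samples, which may be technical.

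The libraries held 16762119 to 17722950 fragments, with overlapping ranges in the groups. Ptprc, Il3ra, Csf2rb, Csf2rb2, Cd79a and Cd79b, markers of leukocytes, of the interleukin 3 receptor and of the B lineage, were present in every sample. The other 4 line markers measured, Vpreb1 and Igll1 of the pre-B receptor and the B lineage transcription factors Pax5 and Ebf1, stayed at or below 0.107 FPKM. The mRNA of these 4 genes was thus absent or nearly so. The summed level of the 10 line markers was 472 to 929 FPKM in the control samples and 951 to 1700 FPKM after I13, most of it Csf2rb and Csf2rb2. Of 7 genes measured that mark other cells, Adgre1 (macrophage) and Hba-a1 (erythroid) had a mean of at least 0.5 FPKM, while Csf1r, Cd3e, Cd3d, Hbb-bs and Col1a1 were lower. Their summed level was 18.9 to 40.9 FPKM in the control samples and 48.2 to 79.2 FPKM after I13, nearly all of it Adgre1, and the part of either sum in the results was not tested.

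Mcl1 was the most abundant member, and no member passed the test for a change after I13. Of the 10 members, 9 were tested, those with a mean of at least 0.5 FPKM over the 6 samples, and Bik was not. None of the 9 had an adjusted p below 0.05 with limma on log2(FPKM + 0.1), and none had an unadjusted p below 0.05. Over all 12163 genes tested, 0.0411% passed an adjusted p of 0.05 together with an absolute log2 fold change of 0.58, the thresholds of the study, and 18.6% had an unadjusted p below 0.05. The adjusted p of the members ran from 0.305 to 0.931. Bmf had the largest log2 fold change, 1.04, and was the only member past 0.58, a size that 9.41% of all genes tested reached. At its low level that value depended on the pseudocount, with 1.30 at a pseudocount of 0.01 and 0.38, under the threshold, at a pseudocount of 1. In bulk RNA, fewer cells that express a gene and less of its RNA per cell cannot be told apart.

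**Figure D1:**
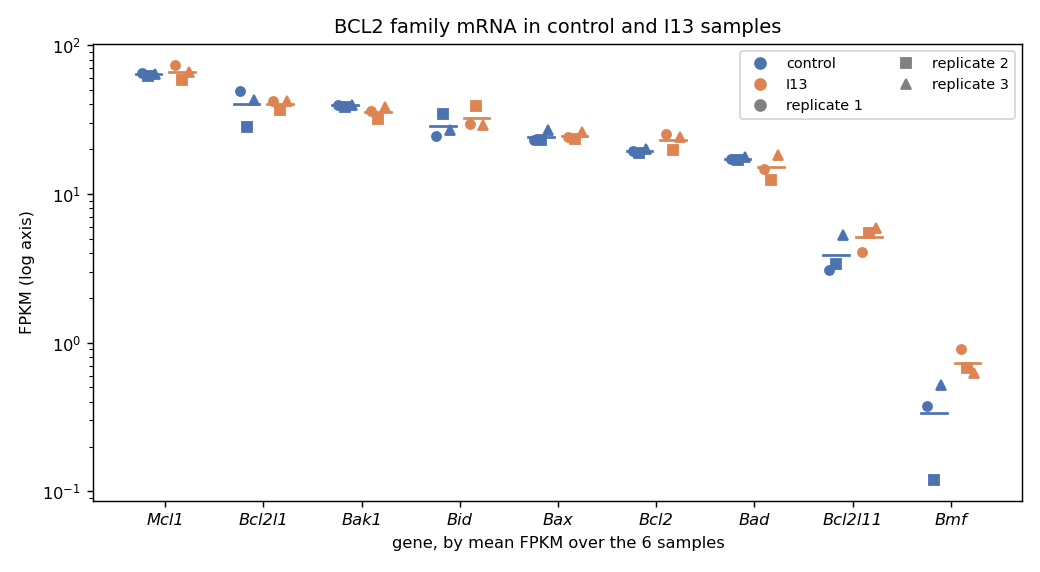
FPKM of the 9 members tested in each sample on a log axis, control in blue and I13 in orange, with circles, squares and triangles for replicates 1, 2 and 3 and a line at each group mean. Mcl1 lies highest, with a mean of 65.0 FPKM over the 6 samples, and Bmf lowest, with 0.535 FPKM, and Bik is left out because 5 of its 6 values were 0.

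The members formed 3 tiers of abundance. In the first, Mcl1 had a mean of 65.0 FPKM over the 6 samples, above 93.1% of the genes tested, and it exceeded every other member in all 6 samples. A middle tier held Bcl2l1 at 40.2, Bak1 at 37.5, Bid at 30.6, Bax at 24.5, Bcl2 at 21.3 and Bad at 16.3 FPKM. Bcl2l11 at 4.51 FPKM, Bmf at 0.535 FPKM and Bik at 0.00997 FPKM formed the lowest. Within the middle tier the order was less firm. The ranges of Bcl2l1 and Bak1 overlapped in both groups, those of Bak1 and Bid and of Bax and Bcl2 overlapped after I13, and those of Bid and Bax overlapped in the control. Mcl1 and Bcl2l1, Bcl2 and Bad, Bad and Bcl2l11, and Bcl2l11 and Bmf did not overlap in either group. The FPKM rest on the gene lengths that the authors used. As recovered here, these ranged from 943 bases for Bik and 1576 for Bax to 9157 for Bcl2. Another choice of transcripts would move levels between genes but not the comparison within a gene. At its recovered length of 1709 bases, Mcl1 had fewer fragments than Bcl2 (11663 against 20467 over the 6 samples) and still the higher FPKM. The shortest length that fitted was taken, which misses a factor shared by all counts of a gene. The contrast in fragments is therefore not firm.

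Among the pro-survival genes, Bcl2 was the member with the clearest difference. Bcl2, the founding member of the family, had 19.6, 18.9 and 20.1 FPKM in the control and 25.5, 19.8 and 24.0 FPKM after I13, given here and for the other genes in the order of replicates 1, 2 and 3. The groups overlapped, because I13 replicate 2 lay below control replicate 3. The log2 fold change was 0.23, a 1.18-fold difference (standard error 0.11, 95% interval -0.03 to 0.50, adjusted p = 0.315 from limma). When I13 samples were set against the control with the same number, Bcl2 was the higher each time, by 0.37, 0.07 and 0.26 on the log2 scale.

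Mcl1, which encodes a short-lived pro-survival protein, was at 65.1, 62.4 and 63.8 FPKM in the control and at 74.0, 58.3 and 66.6 FPKM after I13. The 3 controls lay inside the range of the I13 samples, of which replicate 1 was the highest and replicate 2 the lowest of all 6. The group means were 63.8 ± 1.34 and 66.3 ± 7.86 FPKM (SD, n = 3 each). On the log2 scale Mcl1 differed by 0.05, with a 95% interval of -0.20 to 0.30 (adjusted p = 0.832 from limma). A change beyond 1.23-fold upward or below 0.873 of the control therefore lay outside that interval. Without I13 replicate 1 the log2 fold change was -0.03, so its sign rested on that sample.

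Bcl2l1 encodes BCL-XL, a pro-survival protein under the control of STAT5 in hematopoietic cells. It was at 49.0, 28.4 and 42.9 FPKM in the control and at 42.0, 36.8 and 42.2 FPKM after I13. Control replicate 2 was the lowest and control replicate 1 the highest of the 6 samples, and I13 replicate 2 was the lowest of its own group. The spread within the control, 26.3% of its mean, exceeded the difference between the groups. Its log2 fold change of 0.04 (95% interval -0.42 to 0.50, adjusted p = 0.931 from limma) became -0.19 without control replicate 2.

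The effectors Bax and Bak1 build the pore itself. Bax was at 22.9, 22.9 and 27.1 FPKM in the control and at 24.3, 23.6 and 26.1 FPKM after I13. Replicate 3 was the highest in both groups, and the I13 samples lay within the range of the controls. Its log2 fold change was 0.02 with a 95% interval of -0.22 to 0.26 (adjusted p = 0.922 from limma), and it was -0.02 without control replicate 1, without control replicate 2 or without I13 replicate 3. Bak1 was at 39.9, 38.6 and 39.8 FPKM in the control and at 36.2, 32.1 and 38.2 FPKM after I13. The groups of Bak1 did not overlap, with every I13 sample below every control, which was seen for 25.2% of all genes tested in either direction. For Bak1 the log2 fold change was -0.15 (standard error 0.09, 95% interval -0.37 to 0.07, adjusted p = 0.41 from limma), and -0.08 without I13 replicate 2.

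Among the BH3-only genes, Bcl2l11, Bid and Bmf had positive log2 fold changes and Bad a negative one. BIM, the product of Bcl2l11, binds all pro-survival members and is known to be held low by BCR-ABL. Bcl2l11 was at 3.06, 3.38 and 5.30 FPKM in the control and at 4.04, 5.42 and 5.87 FPKM after I13. Control replicate 3 lay above I13 replicate 1 and close to I13 replicate 2, so the groups overlapped. The means were 3.91 ± 1.21 and 5.11 ± 0.953 FPKM (SD, n = 3 each), and Bcl2l11 differed by 0.40 on the log2 scale (standard error 0.23, 95% interval -0.15 to 0.95, adjusted p = 0.396 from limma). Within the same-numbered pairs it was higher after I13 by 0.39, 0.67 and 0.14. The log2 fold change of Bcl2l11 ranged from 0.25 without control replicate 1 to 0.63 without control replicate 3.

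BID links death receptors to the mitochondrion once caspase-8 has cleaved it. Bid was at 24.6, 34.4 and 26.9 FPKM in the control and at 29.6, 38.8 and 29.2 FPKM after I13. Replicate 2 was the highest in both groups, and control replicate 2 exceeded I13 replicates 1 and 3. The log2 fold change was 0.19 (95% interval -0.20 to 0.57, adjusted p = 0.578 from limma), while the 3 pairs differed by 0.27, 0.17 and 0.12, all upward. Without I13 replicate 2 the unpaired value was 0.05, without control replicate 1 it was 0.08, and without control replicate 2 it was 0.33.

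BAD is kept inactive by phosphorylation through survival kinases. Bad was at 17.3, 16.9 and 17.8 FPKM in the control and at 14.8, 12.5 and 18.4 FPKM after I13. I13 replicates 1 and 2 lay below every control and I13 replicate 3 above every control. Bad differed by a log2 fold change of -0.20 (95% interval -0.54 to 0.14, adjusted p = 0.481 from limma), and its size rested on single I13 samples, at -0.07 without I13 replicate 2 and -0.35 without I13 replicate 3.

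BMF binds the cytoskeleton through a dynein light chain until stress releases it. Bmf was at 0.376, 0.119 and 0.519 FPKM in the control, which came from 35, 11 and 48 fragments, and at 0.907, 0.67 and 0.62 FPKM after I13, from 84, 59 and 57 fragments. Every I13 sample lay above every control, and Bak1 was the only other member without overlap, 12.5% of the 8 members tested besides Bmf against 25.2% of all genes tested. Bmf had a mean of 0.338 FPKM in the control and passed the filter on low values only through the I13 samples, where the mean was 0.732 FPKM, so its difference is partly set by the filter. Its log2 fold change of 1.04 had a wide error (standard error 0.49, 95% interval -0.10 to 2.18, adjusted p = 0.305 from limma). It was 0.60 without control replicate 2, the sample with 11 fragments.

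Bik, a BH3-only gene of the endoplasmic reticulum, was listed at 0 in 5 samples and at 0.0598 FPKM, 1 fragment, in control replicate 1. In each library 3 fragments on Bik would amount to 0.18 to 0.19 FPKM, which is the level that a count of 0 allows, and that limit covers counting error only. No fold change is given for it.

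**Figure D2:**
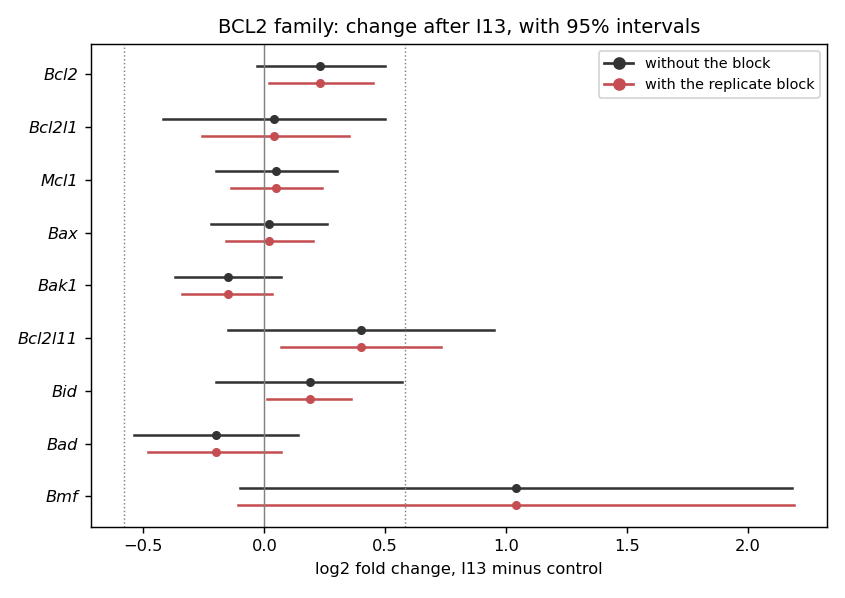
Log2 fold change of the 9 members tested, I13 minus control, with 95% intervals from limma without the block (black) and with the replicate number as a block (red), and dotted lines at the fold change threshold of 0.58 in either direction. All 9 black intervals include 0, and with the block those of Bcl2, Bcl2l11 and Bid lie above it.

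Replicate numbers are shared between the groups and same-numbered samples deviated together, so the members were also compared within pairs. With the replicate block, Bcl2, Bcl2l11 and Bid had an unadjusted p below 0.05 (0.0388, 0.0255 and 0.0424 from limma), which is 37.5% of the 8 members tested besides Bmf, a gene that its high I13 values brought past the filter, against 28.0% of all genes tested. Their adjusted p was 0.156, 0.128 and 0.163, and no member was below 0.05, where 2.99% of all genes tested were. Both thresholds were passed by 1.89% of all genes tested with the block. With voom on the recovered fragments but no block, Bmf was the only member at an unadjusted p below 0.05, where 19.4% of all genes tested were. With voom and the block the 3 genes stayed below 0.05, 37.5% of the 8 members besides Bmf against 30.8% of all genes tested, and Bmf was below it too. The lowest adjusted p among the members was then 0.056, for Bcl2l11, where 12.4% of all genes tested were below 0.05. Besides Bmf, which was higher in all 3 pairs, Bcl2, Bcl2l11 and Bid were higher and Bak1 was lower in all 3, 4 of 8 members (50.0%) with a common direction against 51.6% of all genes tested. Of all genes tested, 24.1% were higher in all 3 pairs and 27.5% lower in all 3. The share with a common direction stands near the background, and the direction of a pair is the same measure as the fold change. Of the 8 members besides Bmf, 6 had a log2 fold change above 0, as did 49.2% of all genes tested, but for Mcl1, Bcl2l1 and Bax it was 0.05 or less and its sign changed when 1 sample was left out. The median log2 fold change of the 9 members was 0.05, also without Bmf, beside -0.005 over all genes tested.

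Much of the variation in the members followed the replicate number and not the treatment. For Bax, 88.5% of the sum of squares of log2(FPKM + 0.1) lay between replicate numbers and 1.64% between control and I13. For Bid these shares were 79.8% and 18.1%, and only 2.06% was left over. Bcl2l1 had 74.1% between replicate numbers and 0.698% between the conditions. In these genes the same number stood out in both groups, replicate 3 high for Bax, and replicate 2 high for Bid and low for Bcl2l1. Bmf, Bcl2 and Bak1 were the 3 members with more between the conditions, at 54.6%, 52.5% and 51.0%. In the other 6 the replicate number held the larger share, as it did in 59.5% of all genes tested. The replicate numbers have 2 degrees of freedom and the conditions 1, which favours the former. What the numbers stand for, such as a shared day or culture, is not given in the sources used here.

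**Figure D3:**
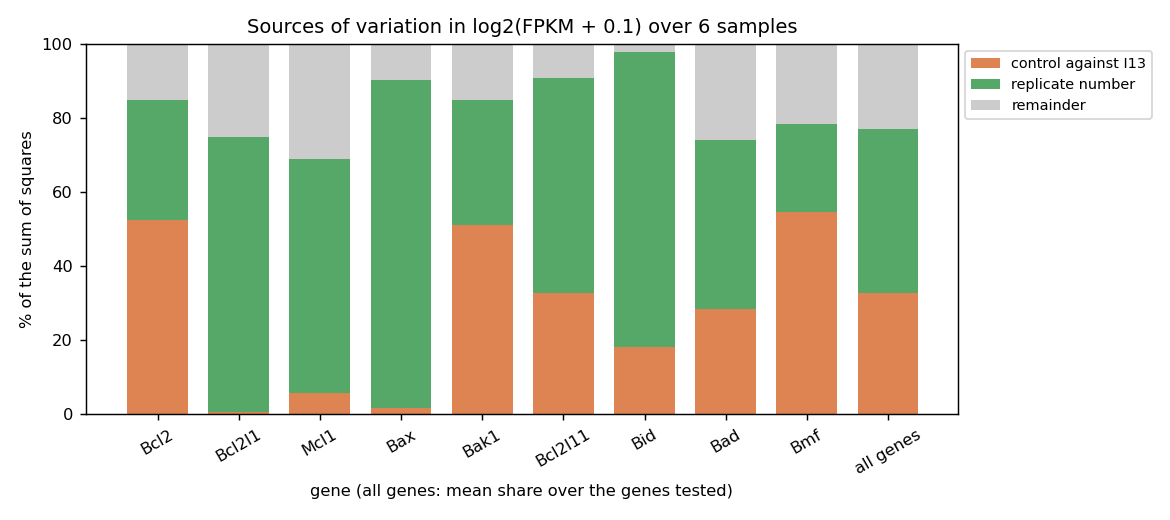
Share of the sum of squares of log2(FPKM + 0.1) over the 6 samples that lay between control and I13 (orange), between replicate numbers (green) and in the remainder (grey), for each member tested and as the mean over all genes tested. The orange part ranges from 0.698% for Bcl2l1 to 54.6% for Bmf, beside a mean of 32.8% over all genes.

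The balance between the arms of the family was described by ratios of FPKM within each sample, with no test, since the members were picked with earlier results known. The pro-survival genes made up 55.3%, 48.5% and 51.9% of the summed FPKM of the 10 members in the controls and 56.3%, 50.4% and 52.9% after I13. In each pair the I13 sample had the slightly higher share. Yet the mean difference of 1.27 percentage points was below the SD of either group. It turned to -0.408 without control replicate 2 and to -0.283 without I13 replicate 1. Either omission breaks a pair, so its value also carries the difference between replicate numbers. The effectors made up 26.0%, 27.2% and 27.4% in the controls and 24.1%, 24.4% and 25.6% after I13, so that the groups did not overlap. Of the effector genes, Bak1 was without overlap too and Bax was not. The effector share was not recomputed with samples left out, and since the shares add up to the whole they do not vary separately. The BH3-only genes held the rest, 21.2% ± 2.78 in the control and 22.1% ± 2.81 after I13 (SD, n = 3 each), mostly through Bid and Bad.

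The ratio of Bax to Bcl2 was 1.17, 1.21 and 1.35 in the controls and 0.953, 1.19 and 1.09 after I13, in the order of the replicates. It was lower after I13 in each pair, while I13 replicate 2 lay between control replicates 1 and 2. The means were 1.24 ± 0.0957 and 1.08 ± 0.119 (SD, n = 3 each), and of both genes Bcl2 had the larger difference between the groups. The ratio of Bcl2l11 to Mcl1 was 0.0471, 0.0541 and 0.0831 in the controls and 0.0546, 0.0931 and 0.0881 after I13. It was higher in each pair, but the groups overlapped widely, with means of 0.0614 ± 0.0191 and 0.0786 ± 0.0209 (SD, n = 3 each). In every sample the mRNA of Bcl2l11 was at most 0.0931 of that of Mcl1. mRNA ratios leave out the turnover and phosphorylation by which these proteins are controlled.

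**Figure D4:**
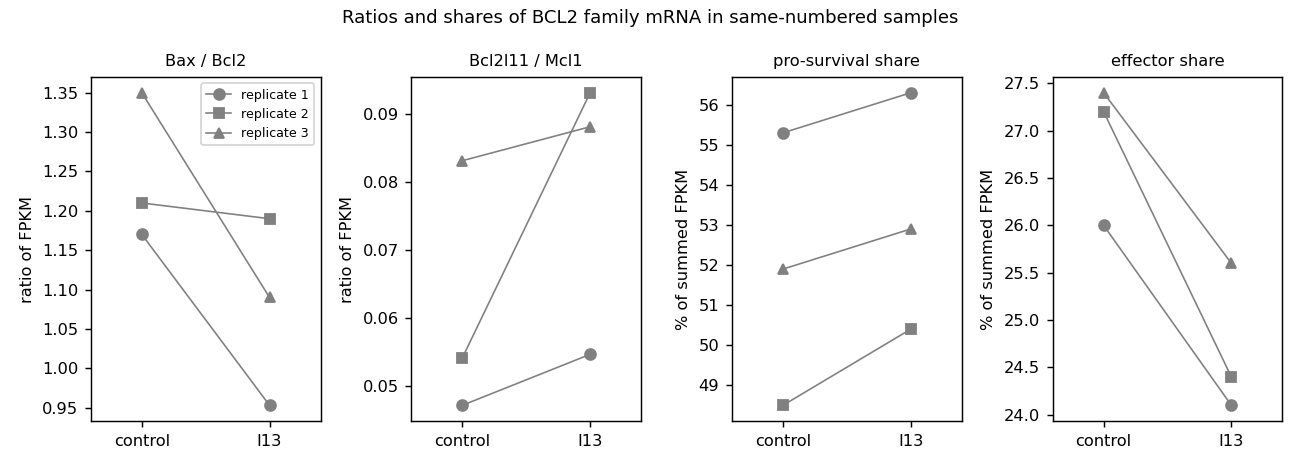
Ratios of FPKM (Bax to Bcl2, Bcl2l11 to Mcl1) and shares of the summed FPKM of the 10 members (pro-survival genes, effectors, in %) in each sample, with lines joining same-numbered control and I13 samples on axes that do not start at 0. The Bax to Bcl2 ratio and the effector share are lower after I13 in all 3 pairs, with means of 1.24 and 26.9% in the control and 1.08 and 24.7% after I13, and the other 2 quantities are higher in all 3.

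Of 16 further BCL2 family genes chosen by name, 11 were measured and 7 tested. Bcl2a1a, Bcl2a1b, Bcl2l10, Pmaip1 and Hrk are not analysed here. Bcl2a1c, Bcl2a1d, Bok and Bcl2l15 were at or below 0.209 FPKM in every sample, and the Bcl2a1 paralogs are near-identical, so reads could be split between them. None of the 7 passed the test, and 1 (14.3%) had an unadjusted p below 0.05 from limma, against 18.6% of all genes tested. That gene was Bcl2l2, which encodes the pro-survival BCL-W. Bcl2l2 was at 6.49, 5.87 and 6.85 FPKM in the control and at 5.12, 3.89 and 4.94 FPKM after I13, with every I13 sample below every control. Groups without overlap were seen for 2 of the 7 (28.6%), Bcl2l2 and Bcl2l14, against 25.2% of all genes tested in either direction. The log2 fold change of Bcl2l2 was -0.46 (95% interval -0.78 to -0.14, adjusted p = 0.161 from limma, and 0.0665 with the replicate block). With voom and the block its adjusted p was 0.0261, where 12.4% of all genes tested were below 0.05. Its change stayed below the threshold of 0.58. The next lowest p-values belonged to the divergent members Bcl2l14 and Bcl2l12, with log2 fold changes of -0.47 and -0.28 and adjusted p of 0.357 and 0.383 from limma. Bbc3 (PUMA), a BH3-only target of p53, was present at 5.88 to 11.3 FPKM, above Bcl2l11 and Bmf in every sample. Bbc3 belongs to this list and was singled out for mention after its values were seen, and its log2 fold change was 0.13 (adjusted p = 0.798 from limma).

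The 10 genes chosen because their proteins act on the family were all tested, with 4 positive and 6 negative log2 fold changes. None was called without the block and 2 had an unadjusted p below 0.05, Trp53 and Fbxw7. Trp53 encodes p53, which drives transcription of Bax and Bbc3. It was at 79.1, 70.4 and 71.4 FPKM in the control and at 60.2, 58.1 and 56.4 FPKM after I13, so the groups did not overlap. On the log2 scale Trp53 differed by -0.34 (standard error 0.08, adjusted p = 0.127 from limma, 0.0567 with the block and 0.0222 once voom was used as well), below the threshold of 0.58. FBXW7 is the substrate receptor of a ubiquitin ligase that marks MCL1 for degradation. Fbxw7 was at 15.7, 9.14 and 15.3 FPKM in the control and at 22.3, 17.0 and 21.9 FPKM after I13, with every I13 sample above every control. On the log2 scale Fbxw7 differed by 0.64 (95% interval 0.11 to 1.16, adjusted p = 0.205 from limma), and by 0.38, under the threshold of 0.58, without control replicate 2, its lowest sample. With voom and the block its adjusted p was 0.00678, where 12.4% of all genes tested were below 0.05. With the replicate block in limma Fbxw7 passed both thresholds, at an adjusted p of 0.0477, as did 1.89% of all genes tested. That call was lost without any 1 of the pairs. Without the pair of replicate 2 or 3 the blocked fit called no gene at all, so those losses are not particular to Fbxw7. Without the pair of replicate 1 it called 78 genes elevated and 5 decreased, and the adjusted p of Fbxw7 from limma was 0.0776. Without the pair of replicate 2 the log2 fold change of Fbxw7 was 0.51. Dynll2, the dynein light chain that holds BMF, had a log2 fold change of 0.21 (adjusted p = 0.37 from limma).

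Downstream of the outer membrane, 8 genes are reported and 7 of them were tested, since Endog was at or below 0.267 FPKM. None of the 7 passed the test, and their log2 fold changes ran from -0.14 to 0.13. Apaf1, the scaffold of the apoptosome, and Htra2, a mitochondrial protease, had log2 fold changes of 0.13 and -0.14 (adjusted p = 0.55 and 0.514 from limma). Cycs, which encodes cytochrome c, was at 47.2, 58.1 and 45.5 FPKM in the control and at 48.5, 47.6 and 47.2 FPKM after I13. The groups overlapped, with control replicate 2 the highest of the 6 samples, and Cycs differed by -0.07 on the log2 scale (95% interval -0.32 to 0.19, adjusted p = 0.781 from limma). List by list, the median log2 fold changes were -0.08, -0.05 and -0.06 for the other family genes, the partners and the downstream genes.

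**Figure D5:**
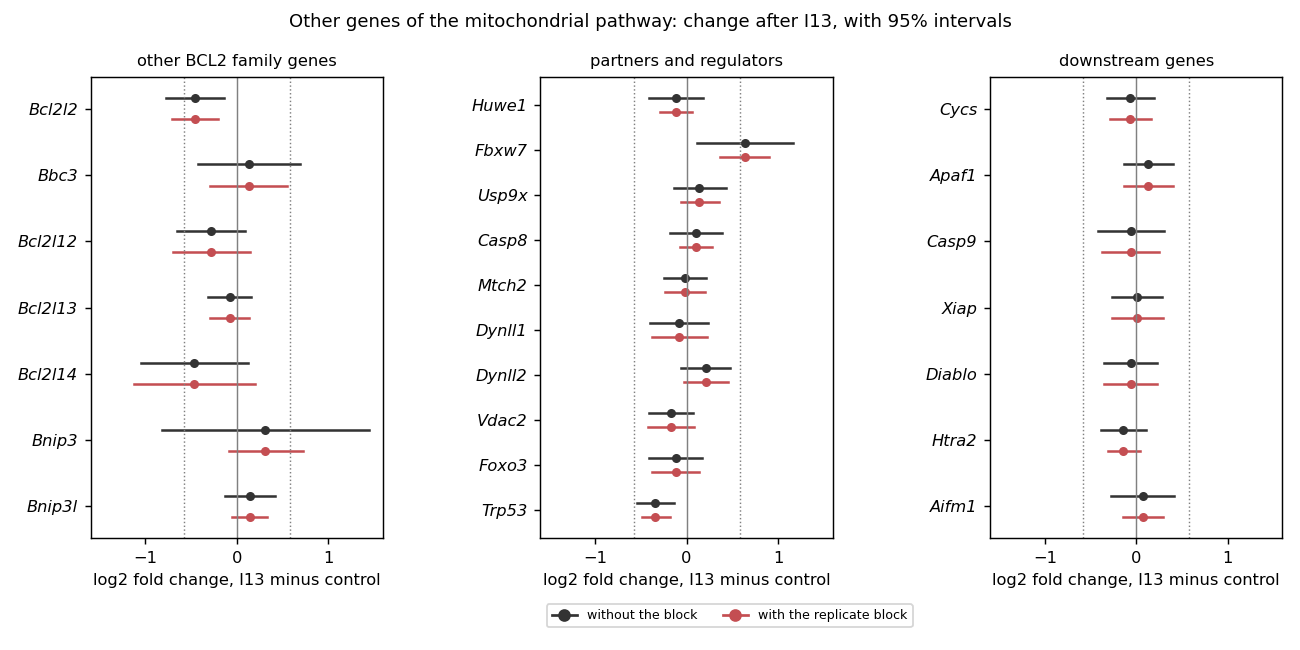
Log2 fold change, I13 minus control, with 95% intervals from limma without the block (black) and with the replicate block (red), for the tested genes of 3 lists: other BCL2 family genes, genes whose proteins act on the family, and genes downstream of the outer membrane. Dotted lines mark 0.58 in either direction, and Fbxw7, at 0.64, is the gene outside them.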

How the data were processed

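Per the labels and the paper, stranded mRNA libraries were made from Trizol-extracted RNA. The authors deposited the FPKM of each replicate. The submitters' processing notes name Trimmomatic, HISAT2, Cufflinks and HTSeq without versions, and the build hg38 with human as the organism, whereas the 22413 gene IDs are mouse IDs and were used as such. No mouse reference was used, so coordinates and sequences are not given.

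limma 3.58.1 (R 4.3.3) was fitted to log2(FPKM + 0.1) over the 12163 genes whose mean FPKM reached 0.5, with eBayes, a trend and Benjamini-Hochberg adjustment. Low genes are understated on this scale. Fragments were recovered as whole numbers for 22410 genes (tolerance 0.03 fragments) and, where the answer was known from simulation, exactly for 96.0% of 1906. Gene lengths were recovered with them, as the shortest that fitted, so a factor shared by all counts of a gene would be missed. The recovered fragments gave the depth and the voom fits. Tested on simulated data, limma called 68.8% of 199 genes with a log2 fold change of 1 and 5 unchanged ones of 12041 in all, and 56.8% and 9 with the replicate block. The simulated samples shared nothing by replicate number, so these values do not show what the block does in the real data. Smaller changes, such as those of most members, were not simulated. Deviations from the group means of same-numbered samples correlated over genes at 0.15, 0.30 and 0.22, each above 0.1. Those of differently numbered samples correlated at -0.26 to 0.05. Deviations within a group add up to 0, so these correlations do not vary separately. The labels' replicate numbers were therefore taken to pair the samples, a choice made on the same values that the block was then applied to.

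All members were named, and from each other list the 3 reported genes with the lowest p. Listed items that are not reported here were left out of the counts. The members and lists were chosen with earlier results of these data known. Alternatives changed the pseudocount, filter, scaling, trend, block and samples. Python 3.11.15 and matplotlib 3.10.9 drew the figures.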

Additional observations from a re-analysis of the deposited data

How the results depend on the processing

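Over the 9 members tested and 19 alternatives, the lowest adjusted p of a member was 0.056, so the number called stayed at 0 under each. With one sample left out, and in the blocked fit without replicate 2 or 3, no gene of the whole table was called. A count of 0 members says nothing about the members in those alternatives. The direction of Bcl2l1, Mcl1 and Bax changed, 8 times in all. With the replicate block these log2 fold changes were -0.12 for Bcl2l1 without replicate 2, and -0.02 for Mcl1 and -0.006 for Bax without replicate 1. When one sample was left out they ran from -0.19 to 0.20 for Bcl2l1, from -0.03 to 0.14 for Mcl1 and from -0.02 to 0.10 for Bax. The members with an unadjusted p below 0.05 numbered 0 in the comparison as reported, against 18.6% of all genes tested. They numbered 1 with the FPKM rescaled to TPM (16.5% of all genes tested), 1 without a trend (17.8%) and 1 with voom (19.4%). With the replicate block they numbered 3 (28.0%), and with voom and the block 4 (30.8%). In the blocked fit they numbered 0, 1 and 3 without replicates 1, 2 and 3, beside 21.9%, 13.5% and 26.0% of all genes tested. When one sample was left out they numbered 0 to 2, beside 12.2% to 20.4%. Bmf, which passed the filter only through the I13 samples, was the 1 without a trend and with voom. It was also among those with voom and the block, in the blocked fit without replicate 3, and in the unblocked fit without control replicate 3. Bmf could not be tested at a mean FPKM of at least 1.

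The pairing changed no call of a member. Over all genes, 4 were elevated and 1 decreased. With the replicate block these numbers were 166 and 64, with voom and the block 375 and 128, and in the blocked fit without replicate 1 they were 78 and 5. Without replicate 2 or 3 limma with the block called 0 and 0, while 1638 and 3160 genes had an unadjusted p below 0.05. Leaving out one sample gave 0 in both directions by limma, and 1478 to 2482 genes had an unadjusted p below 0.05. A pseudocount of 0.01 and median-ratio scaling gave 2 and 0, and no filter and no trend gave 3 decreased genes. The cause was not tested. Of the other named genes, Fbxw7 alone was called in either blocked fit of all 6 samples. Cycs changed direction without control replicate 2, its range with one sample left out being -0.13 to 0.04, and was at 0.05 with the replicate block without replicate 2. Median-ratio scaling moved the median log2 fold change from -0.005 to 0.014. Depth limited Bik, with 1 fragment in all, and Bmf, with 294.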
